A study of Mus musculus with 9 samples.

Results

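The 90 genes described here encode subunits of the mitochondrial respiratory chain and of ATP synthase, with a few of their assembly factors. They were chosen by symbol in the platform annotation: symbols that begin with Nduf, Uqcr or Atp5, the cytochrome c oxidase subunits Cox4 to Cox8 with their isoforms, and Sdha to Sdhd. They are 90 of the 18193 genes with a probe set of 1 symbol on the array and hold 179 probe sets. Complex I is represented by 42 genes, complex II by 4, complex III by 8, complex IV by 19 and complex V (ATP synthase) by 17. A filter on dim probe sets left 86 of them among the 13064 genes tested. The 4 not tested were Cox7b2, Cox8b, Ndufa4l2 and Ndufb4. A further 8 symbols of the same kind occur only on probe sets shared with another symbol and were not counted. In all, 10 shared probe sets were left out, some of which hold symbols of the 90 genes. Among them were a set of Ndufb4 with intensities of 11519.8 to 30771.3 and a set of Ndufs5 with 2768.0 to 6143.8. Both were highest in detrusor.

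Transcript levels were measured on 9 Affymetrix MOE430 arrays of laser-captured neonatal mouse bladder. There were 3 arrays each of detrusor (the smooth muscle coat), stroma and urothelium (the lining epithelium). All mice were of the FVB/N strain and carried an SMGA/EGFP transgene, a green fluorescent reporter of smooth muscle gamma actin (Actg2), in all 3 layers alike, and the sex was not known. Detrusor 1, detrusor 2, stroma 1 and urothelium 2 came from postnatal day 1, and detrusor 3, stroma 2, stroma 3, urothelium 1 and urothelium 3 from day 2. The labels say that samples were not pooled but do not tie arrays to animals, so p-values measure only the spread between these arrays, which may be technical. In captured tissue, fewer cells of a type and less RNA per cell cannot be told apart.

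The respiratory chain passes electrons from NADH (complex I) and succinate (complex II) through complex III to complex IV, cytochrome c oxidase, which reduces oxygen. Complexes I, III and IV pump protons across the inner mitochondrial membrane, and ATP synthase uses that gradient to make ATP. Several small subunits of cytochrome c oxidase exist as tissue isoforms: Cox6a2, Cox7a1 and Cox8b are the forms of heart and skeletal muscle, and Cox6a1, Cox7a2 and Cox8a are the forms of most other tissues. Some core subunits are encoded by mitochondrial DNA and are not among these genes.

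Each layer had the highest summed level of the markers of its label, but the layers also carried transcripts of one another. The summed intensity of 9 smooth muscle markers was 363282 to 524850 on the detrusor arrays, 55840 to 172969 on those of stroma, and 29399, 20692 and 336715 on urothelium 1, 2 and 3. That of 10 urothelial markers was 207373 to 282403 in urothelium, 3254 to 3772 in detrusor, and 42449, 14972 and 183970 in stroma 1, 2 and 3. That of 8 stroma markers was 373548 to 555427 in stroma, 273339 to 347305 in detrusor, and 134369, 122657 and 248912 in urothelium 1, 2 and 3. Urothelium 3 stood out by its smooth muscle transcripts and stroma 3 by its urothelial ones, and stroma 1 held more of both than stroma 2. The number of genes called in each layer comparison is also given without stroma 3 and urothelium 3, but the counts within groups of genes are not. Of 17 skeletal muscle markers, the summed intensity was 135277 to 164903 in detrusor, 3570 to 14015 in stroma and 1485 to 40734 in urothelium. For Actb, a control of RNA quality, the signal at the 3' end was 2.27 to 7.49 times that at the 5' end in detrusor and 5 to 24.67 times in the other layers. For Gapdh it was 15.94 to 34.7 times in detrusor and 15.3 to 31.84 times in the others, with the highest ratio in detrusor 2. The part of muscle markers and RNA quality in the differences between layers was not tested.

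Most respiratory chain genes were at their highest in detrusor. Levels are log2(intensity + 39.31), where 39.31 is the 20th percentile of all values, so differences of dim genes are understated. After centring each gene on its mean over the 9 arrays, the median of the 86 genes was 0.32, 0.50 and 0.46 in detrusor 1, 2 and 3. It was 0.03, -0.36 and -0.03 in stroma and -0.28, -0.36 and -0.19 in urothelium. The detrusor arrays were thus the 3 highest by this median and did not overlap the others. Every detrusor array lay above the other 6 arrays for 37 of 86 genes (43.0%), against 8.36% of all genes tested, and below them for 0 of 86, against 7.67%. Every stroma array lay below the other 6 for 4 genes (against 1.86% of all genes) and above them for 0 (against 3.87%), and every urothelium array below for 6 (against 6.19%) and above for 1 (against 6.42%). Detrusor replicates of a respiratory gene had a median SD of 0.26, stroma replicates 0.35 and urothelium replicates 0.23 (n = 3 per layer), against 0.39, 0.56 and 0.42 over all genes tested.

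**Figure D1:**
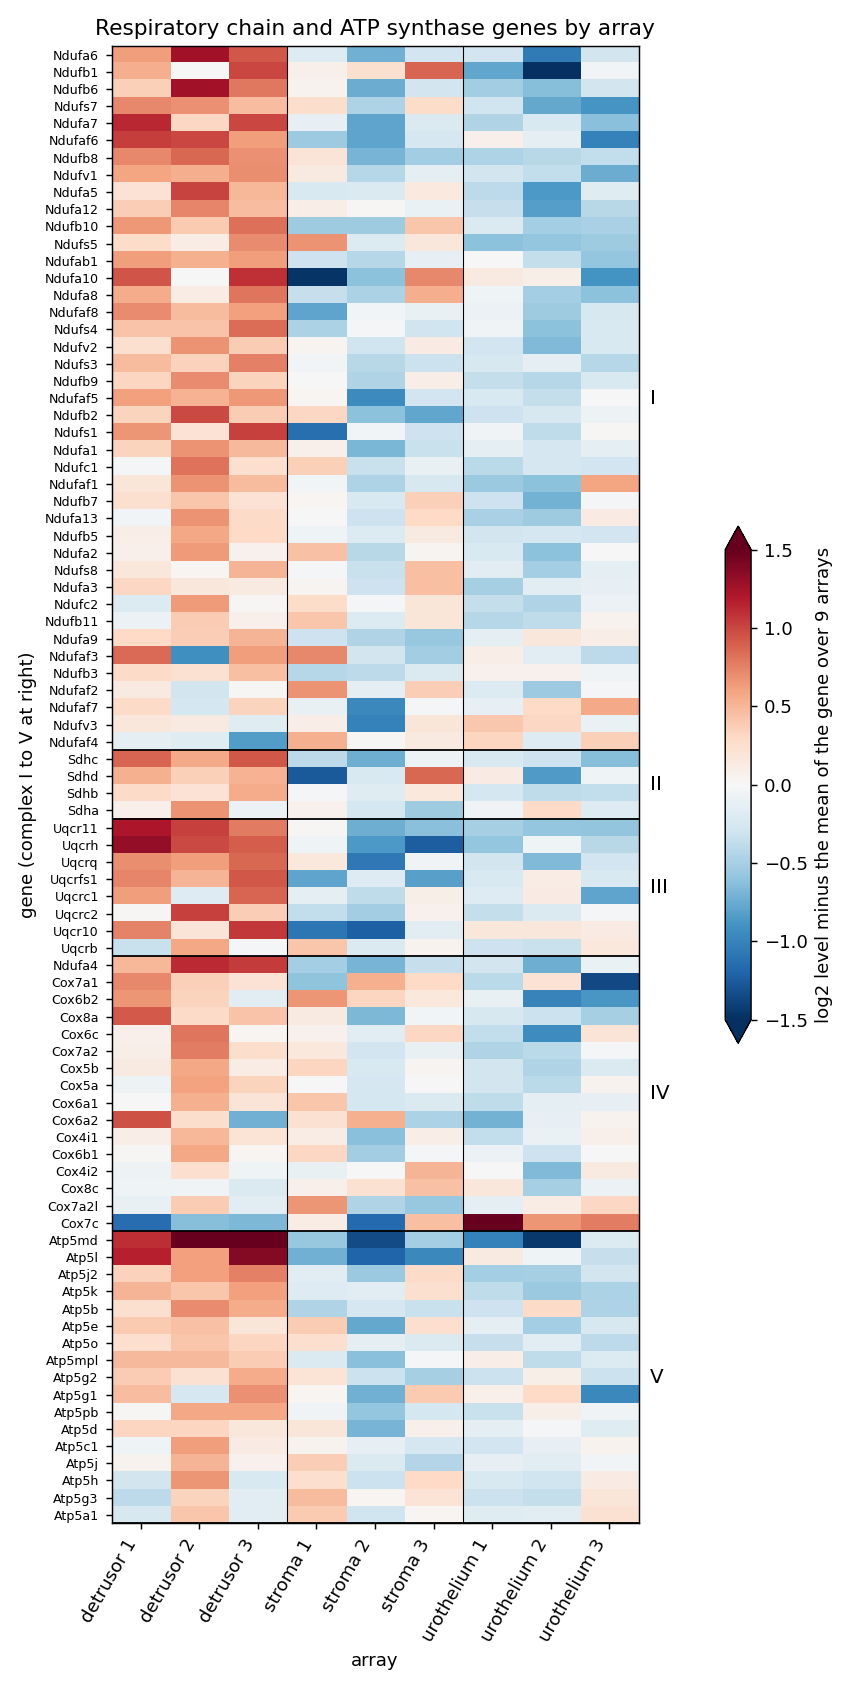
Log2 level of the 86 tested genes (rows, grouped by complex I to V and ordered within a complex by the difference between urothelium and detrusor) on the 9 arrays (columns), each minus the gene's mean over the arrays, with red above and blue below that mean and colours capped at 1.5 log2 units. Most rows are red in the 3 detrusor columns, whose medians are 0.32, 0.50 and 0.46, while Cox7c in complex IV is blue there and red in urothelium.

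The comparison of detrusor with stroma asks which of these genes the muscle coat carries at another level than the connective tissue beside it. With limma, 12 of 86 genes (14.0%) rose in detrusor at an adjusted p under 0.05 and 0 fell, against 5.84% of all 13064 genes called in either direction (3.12% higher and 2.72% lower). An unadjusted p under 0.05 was reached by 36 of the 86. The share of all genes that reached it was not counted, here or for the unadjusted counts given below, so these cannot be set against a background. The 3 detrusor arrays all lay above the 3 stroma arrays for 40 genes (46.5%, against 11.8% of all genes) and below them for 2 (2.33%, against 15.3%). The median difference was 0.50 log2 units, with 75 genes above 0 and 11 below, where the median of all genes tested was -0.16. On day 1 alone the median was 0.37 (all genes -0.13) and on day 2 alone 0.56 (all genes -0.20). The number called rested on single arrays. Leaving out detrusor 1, 2 or 3 gave 4 (4.65%), 2 (2.33%) and 0 called genes, against 2.82%, 1.45% and 0.804% of all genes. Leaving out stroma 2, stroma 3 or urothelium 1 gave 6 (6.98%), 7 (8.14%) and 7 (8.14%), against 6.51%, 3.08% and 3.96%. Without stroma 3 and urothelium 3 together it was 4 (4.65%, against 3.28%), while the median difference was 0.60.

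Urothelium was compared with detrusor in the same fit, and the detrusor arrays are shared by both comparisons. With limma, 23 of 86 genes (26.7%, against 8.05% of all genes) fell in urothelium and 1 rose (1.16%, against 8.37%), or 24 in all (27.9%, against 16.4%). The 3 urothelium arrays all lay below the 3 detrusor arrays for 58 genes (67.4%, against 20.0%) and above them for 1 (against 19.3%). The median difference was -0.67 log2 units, with 81 genes below 0 and 5 above, where that of all genes tested was -0.01. On day 1 alone it was -0.75 and on day 2 alone -0.64. Leaving out detrusor 1, 2 or 3 gave 13 (15.1%), 13 (15.1%) and 6 (6.98%) called genes, against 11.5%, 11.2% and 8.97% of all genes. Leaving out urothelium 1, 2 or 3 gave 11 (12.8%), 10 (11.6%) and 14 (16.3%), against 11.5%, 10.2% and 14.0%, and without stroma 3 and urothelium 3 together it was 13 (15.1%, against 14.4%). With each array centred on its median 7 were called (8.14%), 6 lower and 1 higher, which is below the 13.9% of all genes called at that setting. With array weights 46 were called (53.5%, against 29.0%), 44 lower and 2 higher. The count of called genes therefore stood above that of all genes at some settings and near or below it at others.

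**Figure D2:**
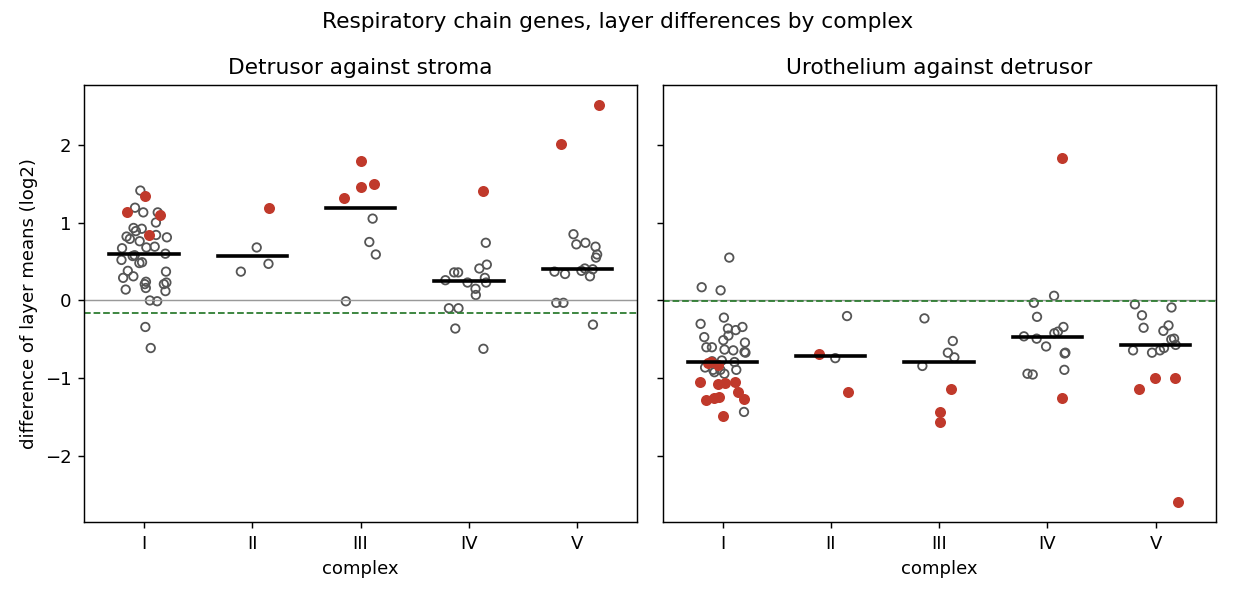
Difference of layer means on the log2 scale (vertical axis) for each of the 86 tested genes (points) by complex (horizontal axis), detrusor minus stroma at left and urothelium minus detrusor at right; filled points have a limma adjusted p under 0.05, black bars are the median of a complex and the dashed line is the median of all genes tested. Medians lie between 0.25 (complex IV) and 1.18 (complex III) at left and between -0.79 (complex I) and -0.48 (complex IV) at right.

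The promoters of some genes on which these comparisons turn are shown, with the letters of known regulators of respiratory genes searched in them. They are windows from 250 bases before to 50 bases after the annotated start, taken from RefSeq on build GRCm38.p6, and 74 of the 90 genes matched by symbol, with 79 windows. Of 17 called genes followed through the alternatives, Atp5md, Ndufa6, Ndufs7 and Uqcr11 alone were called lower in urothelium than in detrusor under every one. They are shown for that reason. Atp5l is shown because its detrusor excess over stroma was the next after that of Atp5md, and Cox7a1 and Cox8b because they are muscle isoforms. Capitals mark a match on either strand: AAGGTCA, the site of estrogen-related receptors, in Atp5l; GCGCA and GCGC with any 1 base between them, the site of NRF1, in Ndufa6; AAGATGGCG, the site of YY1, in Ndufs7; CCGGAAGT, the site of ETS factors such as GABPA, in Uqcr11; and CAGCTG, an E-box bound by myogenic factors, in Cox8b.
Atp5md, chr19:47090598-47090897, minus strand: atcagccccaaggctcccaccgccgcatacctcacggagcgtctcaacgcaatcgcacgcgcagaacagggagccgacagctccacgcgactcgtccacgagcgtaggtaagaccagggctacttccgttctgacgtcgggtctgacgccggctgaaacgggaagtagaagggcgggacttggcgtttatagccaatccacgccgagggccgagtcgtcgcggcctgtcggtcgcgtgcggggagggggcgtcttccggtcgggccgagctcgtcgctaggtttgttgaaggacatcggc
Atp5l, chr9:44920693-44920992, minus strand: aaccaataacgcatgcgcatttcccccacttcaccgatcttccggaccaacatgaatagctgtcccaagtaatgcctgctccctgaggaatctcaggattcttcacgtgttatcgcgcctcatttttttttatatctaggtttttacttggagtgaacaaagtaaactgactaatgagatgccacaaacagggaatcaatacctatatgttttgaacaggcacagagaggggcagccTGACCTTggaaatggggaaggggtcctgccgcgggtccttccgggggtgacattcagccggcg
Ndufa6, chr15:82354242-82354541, minus strand: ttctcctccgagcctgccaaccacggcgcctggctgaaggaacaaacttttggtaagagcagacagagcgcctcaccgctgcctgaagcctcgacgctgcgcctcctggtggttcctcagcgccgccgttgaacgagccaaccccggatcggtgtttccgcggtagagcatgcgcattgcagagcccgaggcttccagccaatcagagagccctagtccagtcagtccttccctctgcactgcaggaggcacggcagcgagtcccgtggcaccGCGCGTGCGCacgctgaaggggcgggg
Ndufs7, chr10:80249199-80249498, plus strand: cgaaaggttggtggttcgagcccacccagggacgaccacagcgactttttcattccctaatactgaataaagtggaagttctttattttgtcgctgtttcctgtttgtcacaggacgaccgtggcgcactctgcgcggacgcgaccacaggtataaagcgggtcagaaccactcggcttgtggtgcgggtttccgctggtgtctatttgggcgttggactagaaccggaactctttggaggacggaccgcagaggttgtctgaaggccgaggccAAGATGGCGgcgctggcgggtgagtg
Uqcr11, chr10:80406772-80407071, minus strand: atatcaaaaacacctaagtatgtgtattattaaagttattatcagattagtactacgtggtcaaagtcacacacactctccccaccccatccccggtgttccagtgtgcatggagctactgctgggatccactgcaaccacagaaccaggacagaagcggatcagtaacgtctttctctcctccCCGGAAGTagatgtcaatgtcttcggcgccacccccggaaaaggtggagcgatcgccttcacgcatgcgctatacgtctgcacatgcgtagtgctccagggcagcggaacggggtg
Cox7a1, chr7:30183921-30184220, plus strand: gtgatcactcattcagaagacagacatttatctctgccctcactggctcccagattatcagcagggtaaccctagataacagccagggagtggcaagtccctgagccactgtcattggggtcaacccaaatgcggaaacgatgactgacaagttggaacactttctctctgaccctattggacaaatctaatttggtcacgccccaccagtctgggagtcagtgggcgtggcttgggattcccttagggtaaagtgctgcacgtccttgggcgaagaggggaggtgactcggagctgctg
Cox8b, chr7:140900397-140900696, minus strand: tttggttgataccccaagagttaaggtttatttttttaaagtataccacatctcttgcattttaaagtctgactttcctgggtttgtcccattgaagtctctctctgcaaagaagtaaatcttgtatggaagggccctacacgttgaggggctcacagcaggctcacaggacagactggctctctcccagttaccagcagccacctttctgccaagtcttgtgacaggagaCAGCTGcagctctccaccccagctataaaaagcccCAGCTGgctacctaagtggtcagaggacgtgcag

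In Atp5l the match began 13 bases before the start and in Uqcr11 66 bases before it, whereas in Ndufa6 and Ndufs7 it lay 23 and 24 bases after it. Cox8b held 2 E-boxes, 19 bases before and 16 bases after its start. None of the motifs searched was in the windows of Atp5md and Cox7a1, which says only that these letters are not there. The NRF1 letters were in 18 of the 79 windows (22.8%), against 4.6% of all 32851 windows of the table. The YY1 letters were in 7 (8.86%, against 1.4%), those of estrogen-related receptors in 8 (10.1%, against 4.72%) and those of ETS factors in 5 (6.33%, against 3.89%). CAGCTG was in 6 (7.59%, against 16.3%), the MEF2 site in 0 (against 3.19%) and the CArG box, the site of serum response factor, in 0 (against 1.63%). Of the genes with a window, NRF1 letters were in 3 of 20 called between urothelium and detrusor and in 13 of 51 not called. ETS letters were in 3 of 20 and 2 of 51, CAGCTG in 2 of 20 and 3 of 51, and those of YY1 and of estrogen-related receptors each in 2 of 20 and 5 of 51. Whether called and other genes differ in these was not tested.

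Complex I, the NADH dehydrogenase, had 4 of 41 tested genes called higher in detrusor than in stroma (median difference 0.60) and 13 called lower in urothelium than in detrusor (median -0.79). These and the counts of the other complexes stand against 3.12% and 8.05% of all genes tested. Its accessory subunits, which surround the catalytic core, held all 4 of the former and 8 of the latter, of 27. Ndufa6, an accessory subunit on the matrix side, had intensities of 30010, 46884 and 37345 in detrusor, 17018, 11827 and 15978 in stroma and 15953, 9288 and 16117 in urothelium. Every detrusor array was above every other array. It was 2.53-fold higher in detrusor than in stroma (log2 1.34 ± 0.29, SE, limma adjusted p = 0.0266) and 2.80-fold lower in urothelium than in detrusor (-1.48 ± 0.29, adjusted p = 0.00648). Ndufb6 and Ndufb8, accessory subunits of the membrane arm, rose by 1.13 ± 0.29 and 1.10 ± 0.26 in detrusor over stroma (limma adjusted p = 0.0483 and 0.0336). They fell by 1.28 ± 0.29 and 1.18 ± 0.26 in urothelium (adjusted p = 0.0133 and 0.0107). With the mean of its probe sets Ndufb6 differed by 0.75 (adjusted p = 0.104) and -0.83 (adjusted p = 0.0427), and its call against stroma was lost in 14 of 19 alternatives. Ndufa9, an accessory subunit of the matrix arm, rose in detrusor over stroma (0.84 ± 0.21, limma adjusted p = 0.0454) but did not pass between urothelium and detrusor (-0.36 ± 0.21, adjusted p = 0.304), and its call was lost in 13 of 19 alternatives.

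Of the 6 nuclear-encoded core subunits tested, most carry the flavin or iron-sulfur clusters. Between detrusor and stroma 0 of the 6 passed (3 had an unadjusted limma p under 0.05, median 0.68), and 4 fell in urothelium against detrusor (median -0.81). Ndufs7, which holds the last iron-sulfur cluster before ubiquinone, had intensities of 19745, 19262 and 16626 in detrusor, 14388, 8685 and 14534 in stroma and 9788, 7000 and 6457 in urothelium. Detrusor was above both other layers on every array, and urothelium 1 lay within the range of stroma. Ndufs7 was 2.42-fold lower in urothelium than in detrusor (log2 -1.27 ± 0.28, limma adjusted p = 0.0118) and did not pass between detrusor and stroma (0.60 ± 0.28, adjusted p = 0.24). Ndufv1, the NADH-binding subunit, fell by 1.07 ± 0.25 in urothelium (limma adjusted p = 0.0133), and the accessory Ndufa12 by 1.05 ± 0.23 (adjusted p = 0.0119). The other complex I genes called lower in urothelium were Ndufa5, Ndufa7, Ndufb9, Ndufb10, Ndufs3, Ndufv2 and the assembly factor Ndufaf6, with differences of -1.25 (Ndufa7) to -0.79 (Ndufb9). Among the 8 assembly factors, Ndufaf4 had the lowest difference between detrusor and stroma (-0.61 ± 0.28, adjusted p = 0.221).

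Complex II, succinate dehydrogenase, is also an enzyme of the citric acid cycle, and all 4 of its genes were tested. Sdhc, a membrane anchor, had intensities of 9223, 7488 and 9603 in detrusor, 3826, 3007 and 4761 in stroma and 4280, 4050 and 3208 in urothelium. Detrusor did not overlap the other layers. Sdhc rose in detrusor over stroma (log2 1.19 ± 0.29, limma adjusted p = 0.0374) and fell in urothelium against detrusor (-1.18 ± 0.29, adjusted p = 0.0175). With the mean of its probe sets it was called in neither (0.84, adjusted p = 0.145, and -0.78, adjusted p = 0.124). The iron-sulfur subunit Sdhb fell in urothelium (-0.69 ± 0.21, limma adjusted p = 0.0486, lost in 11 of 19 alternatives) and did not pass between detrusor and stroma (0.37 ± 0.21, adjusted p = 0.329). Sdhd, the other anchor, passed neither test (0.68 ± 0.46 and -0.74 ± 0.46), nor did Sdha, which holds the flavin (0.47 ± 0.27 and -0.20 ± 0.27). Sdhd had stroma intensities from 8092 to 35637, a range that covers its detrusor arrays.

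Complex III, which passes electrons to cytochrome c, had the highest median difference between detrusor and stroma of the 5 complexes, 1.18 log2 units, with 4 of 8 genes called. Between urothelium and detrusor 3 of 8 fell (median -0.78). Uqcrh, the acidic hinge protein that contacts cytochrome c1, had intensities of 11018, 8792 and 8342 in detrusor, 4213, 2407 and 1849 in stroma and 2928, 4199 and 3287 in urothelium. It was 3.47-fold higher in detrusor than in stroma (log2 1.79 ± 0.35, limma adjusted p = 0.0172) and 2.69-fold lower in urothelium than in detrusor (-1.43 ± 0.35, adjusted p = 0.0171). Uqcr11, a small membrane subunit, had intensities of 20268, 17895 and 15055 in detrusor, 8838, 5240 and 5639 in stroma and 6198, 5840 and 5774 in urothelium. For Uqcrh and Uqcr11 alike, every detrusor array was above the other 6. Uqcr11 differed by 1.46 ± 0.28 (limma adjusted p = 0.0168) and by -1.56 ± 0.28 (adjusted p = 0.0038) in the same comparisons.

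Uqcrfs1, the Rieske iron-sulfur subunit, had intensities of 20528, 17583 and 23604 in detrusor, 7143, 10817 and 7057 in stroma and 10541, 13338 and 10524 in urothelium. It rose in detrusor over stroma (log2 1.32 ± 0.26, limma adjusted p = 0.0199) and lay just outside the threshold between urothelium and detrusor (-0.84 ± 0.26, adjusted p = 0.0523). Uqcr10, another small subunit, rose in detrusor over stroma (1.49 ± 0.37, limma adjusted p = 0.0417), but of its other probe sets 1 differed by -0.71 and 1 by 0.68. With the mean of its probe sets it was not called, and its difference ranged from 0.49 to 1.84 over the alternatives. Uqcrq, also a small subunit, fell in urothelium (-1.13 ± 0.33, limma adjusted p = 0.0389), and it too had a probe set of the opposite sign. With the mean of its probe sets the difference was -0.51 (adjusted p = 0.336), and the call was lost in 11 of 19 alternatives. The core proteins Uqcrc1 and Uqcrc2 and the small subunit Uqcrb passed neither test, with differences between detrusor and stroma of 0.59, 0.75 and -0.01. Other kept probe sets of Uqcrc2 and Uqcrb differed by 1.05 and 1.39.

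The called genes of ATP synthase all encode its small membrane subunits. Of the 5 accessory membrane subunits, which sit where ATP synthase dimers form, 2 rose in detrusor over stroma (median 0.74) and 4 fell in urothelium against detrusor (median -1.0). All 5 had detrusor arrays above every stroma array and above every urothelium array. Of the 5 subunits of the catalytic head and central stalk, the 3 of the c-ring and the 4 of the peripheral stalk, 0 were called with limma in either comparison. Of these 12 genes, Atp5b and Atp5pb between detrusor and stroma, and Atp5b and Atp5o between urothelium and detrusor, had an unadjusted p under 0.05. Medians of the 3 groups were 0.38, 0.40 and 0.34 between detrusor and stroma and -0.39, -0.50 and -0.40 between urothelium and detrusor. These values are from the brightest probe set of each gene. Other kept probe sets differed between detrusor and stroma by 0.84 for Atp5h (-0.03 by its brightest), 1.09 for Atp5pb (0.69) and 0.82 for Atp5o (0.37). Those of Atp5a1 differed by -0.90 and 0.57 (-0.03), and that of Atp5g2 by -0.52 (0.59). Whether the groups of subunits differ from each other was not tested.

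Atp5md, which takes part in holding ATP synthase dimers together, had the largest differences of the 86 genes in both comparisons. Its intensities were 13693, 33198 and 19491 in detrusor, 4252, 2475 and 4439 in stroma and 3130, 2301 and 5511 in urothelium. The lowest detrusor array was above the highest of the others. It was 5.69-fold higher in detrusor than in stroma (log2 2.51 ± 0.43, limma adjusted p = 0.0111) and 6.01-fold lower in urothelium than in detrusor (-2.59 ± 0.43, adjusted p = 0.00284). Atp5l (subunit g) had intensities of 5658, 3863 and 6565 in detrusor, 1503, 1068 and 1264 in stroma and 2751, 2389 and 1968 in urothelium. The 3 layers did not overlap, with urothelium between the others. Atp5l was 4.04-fold higher in detrusor than in stroma (2.01 ± 0.32, limma adjusted p = 0.00912) and 2.21-fold lower in urothelium than in detrusor (-1.14 ± 0.32, adjusted p = 0.035). Without detrusor 3 the call against stroma was lost for Atp5md (adjusted p = 0.0574) and for Atp5l (adjusted p = 0.0595), and it held in the other 18 alternatives. Over its alternatives, the adjusted p of Atp5md was 0.00551 to 0.0574 and that of Atp5l 0.00689 to 0.0595. Atp5j2 (subunit f) and Atp5k (subunit e) fell in urothelium by 1.0 ± 0.25 and 0.99 ± 0.23 (limma adjusted p = 0.0202 and 0.0143), although Atp5j2 had a probe set of the opposite sign.

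**Figure D3:**
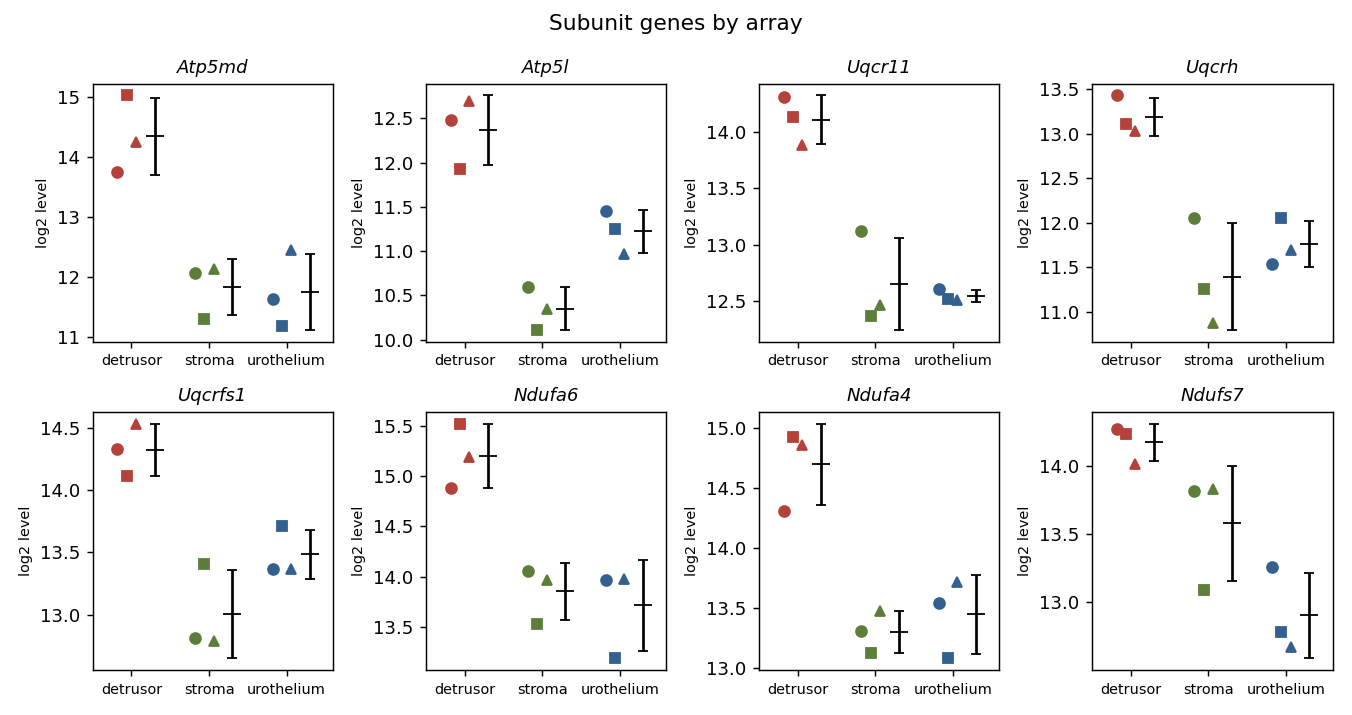
Log2 level (vertical axes, a separate scale for each gene) of 8 subunit genes on the 9 arrays by layer (horizontal axes); circles are replicate 1, squares 2 and triangles 3, and the bars give the mean ± SD (n = 3). In all 8 panels the 3 detrusor arrays lie above the 3 stroma and the 3 urothelium arrays.

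Read from the brightest probe set of each gene, cytochrome c oxidase had the smallest medians of the 5 complexes. They were 0.25 between detrusor and stroma and -0.48 between urothelium and detrusor. Of its 16 tested genes, 1 was called in the former comparison (6.25%, against 5.84% of all genes) and 2 in the latter, in opposite directions (12.5%, against 16.4%). Other kept probe sets of some genes differed more between detrusor and stroma. They gave 2.08 for Cox6c (0.23 by its brightest), 1.29 for Cox6a1 (0.26), 1.25 for Cox7a2 (0.46) and, in the other direction, -1.34 for Cox7c (-0.62). Whether the order of the complexes holds with these was not tested. Ndufa4, a subunit once assigned to complex I, had intensities of 20287, 31183 and 29702 in detrusor, 10113, 8887 and 11318 in stroma and 11862, 8645 and 13483 in urothelium. It rose in detrusor over stroma (log2 1.40 ± 0.27, limma adjusted p = 0.0173) and fell in urothelium against detrusor (-1.25 ± 0.27, adjusted p = 0.01). Detrusor overlapped neither of the others. Cox7c, a small structural subunit, was the single gene called higher in urothelium than in detrusor, by 1.83 ± 0.50 (limma adjusted p = 0.0306). Its intensities were 227, 341 and 332 in detrusor, 600, 224 and 771 in stroma and 1768, 887 and 965 in urothelium. Its probe set is dim and carries the suffix that Affymetrix gives to sets matching several transcripts. Uqcrh, Uqcrq and Atp5j2, called lower in urothelium, were also read from sets with that suffix. The other kept set of Cox7c, dimmer and without the suffix, differed by 2.40 between urothelium and detrusor. The call of Cox7c was lost in 9 of 19 alternatives, among them each omission of a detrusor or urothelium array.

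No tissue isoform of cytochrome c oxidase passed between detrusor and the other layers. Of 8 such genes 5 were tested, and limma called 0 in either comparison (0 had an unadjusted p under 0.05), with medians of -0.10 between detrusor and stroma and -0.42 between urothelium and detrusor. Cox6a2, the heart and skeletal muscle form of subunit VIa, had log2 levels of 9.38, 8.69 and 7.71 in detrusor, 8.66, 8.96 and 7.96 in stroma and 7.72, 8.31 and 8.48 in urothelium. The layers overlapped, and detrusor held both its highest and its lowest array. Its difference was 0.07 ± 0.54 between detrusor and stroma (limma adjusted p = 0.955) and -0.42 ± 0.54 between urothelium and detrusor (adjusted p = 0.662). Cox7a1, the muscle form of subunit VIIa, had log2 levels of 8.44, 8.08 and 7.94 in detrusor, 7.12, 8.25 and 8.02 in stroma and 7.32, 7.93 and 6.37 in urothelium. Detrusor overlapped stroma and lay just above urothelium, and the differences were 0.36 ± 0.57 (limma adjusted p = 0.743) and -0.95 ± 0.57 (adjusted p = 0.30).

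Cox8b, the muscle form of subunit VIII, reached its array's median on 0 of 9 arrays and was not tested. Its log2 levels were 5.57, 7.24 and 5.55 in detrusor, 7.27, 5.48 and 6.20 in stroma and 5.49, 5.42 and 5.88 in urothelium, with no layer apart. The lung isoform Cox4i2 lay between 7.75 and 8.92 on all 9 arrays and the testis isoform Cox6b2 between 7.66 and 9.32, and their differences did not pass. The table holds no detection calls, so levels as low as these cannot be called absent. Of the common isoforms, Cox6a1 lay between 15.33 and 16.25, Cox7a2 between 15.58 and 16.79, Cox4i1 between 15.01 and 16.14 and Cox8a between 11.08 and 12.68. Of these, Cox7a2 came nearest to the threshold between urothelium and detrusor (-0.67 ± 0.23, limma adjusted p = 0.0731). Levels of different probe sets are not compared, since each has its own brightness.

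**Figure D4:**
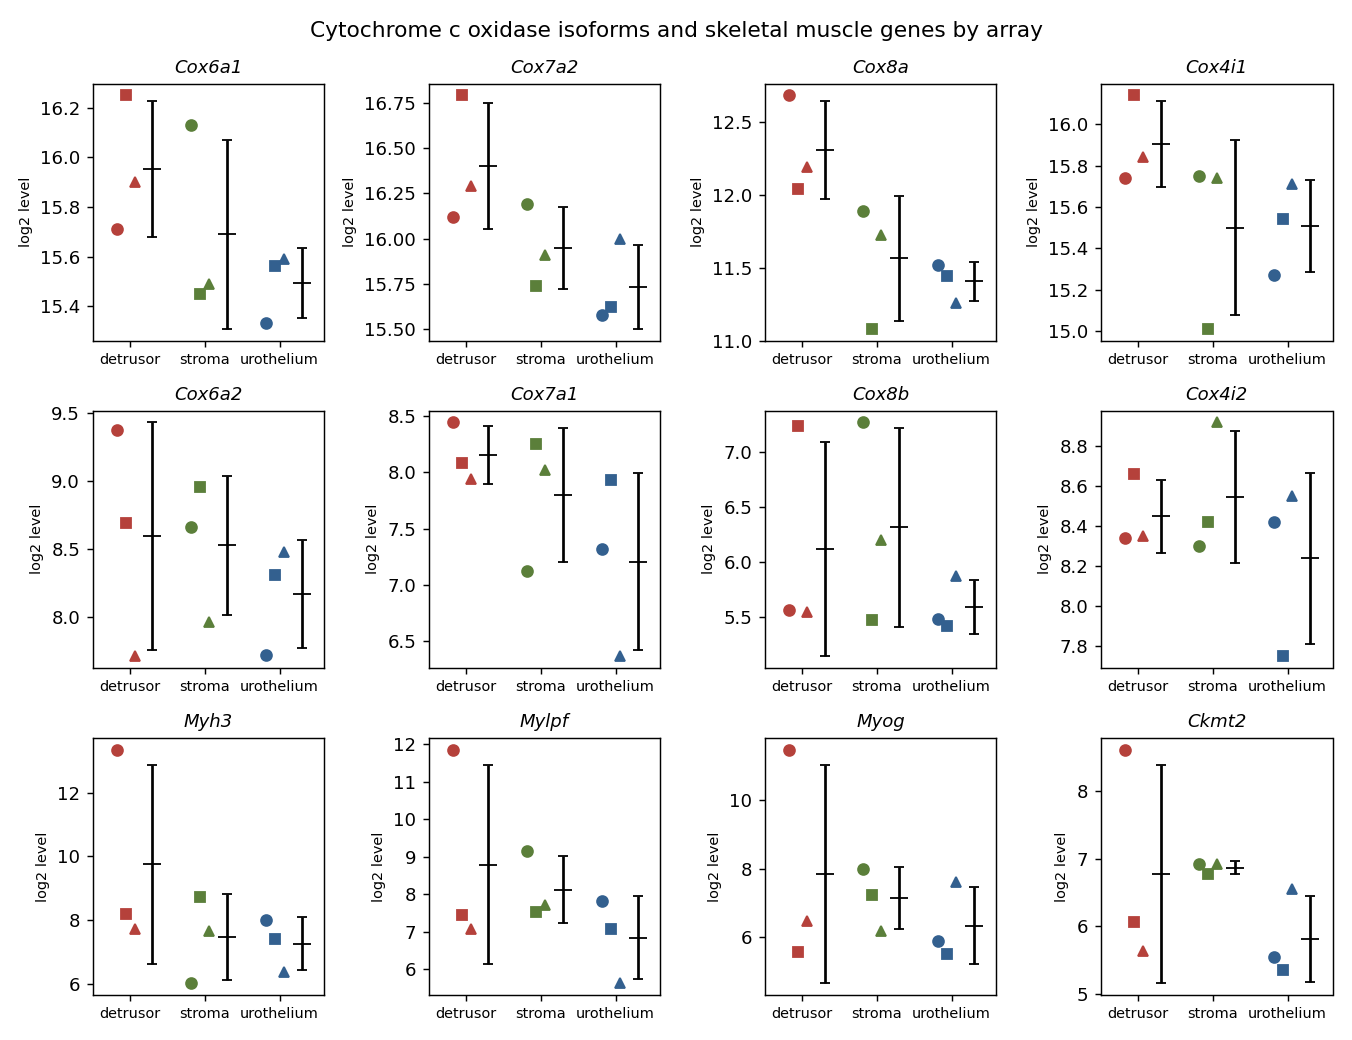
Log2 level (vertical axes, a separate scale for each gene) by layer (horizontal axes) of 4 common isoforms of cytochrome c oxidase (top row), 4 tissue isoforms (middle row) and 4 skeletal muscle genes (bottom row); circles are replicate 1, squares 2 and triangles 3, and the bars give the mean ± SD (n = 3). The tissue isoforms overlap between layers apart from Cox7a1 in detrusor and urothelium. The 4 skeletal muscle genes, picked after their values were seen, are high in detrusor 1 alone, unlike Ckm and Myh8, which are not shown.

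Whether paired isoforms changed unequally over the layers was tested on the log2 difference of the 2 genes within each array, with an exact permutation test over all assignments of the arrays to layers (the smallest p possible is 0.00357). Of 10 pairs, 0 passed after adjustment over the pairs, and 0 had an unadjusted p under 0.05. For Cox6a2 against Cox6a1 the exact p was 0.946 (adjusted 0.946), for Cox7a1 against Cox7a2 0.836 (adjusted 0.946) and for Cox8b against Cox8a 0.382 (adjusted 0.637). The pair nearest to the threshold was Atp5g3 against Atp5g2, genes for the same c-ring protein (exact p = 0.0929, adjusted 0.488). For Cox6a2 against Cox6a1, the change of the difference from stroma to detrusor was -0.20, with SDs of 0.95 in detrusor and 0.58 in stroma, and such spreads leave small changes undetectable with 3 arrays per layer. Slc25a4 and Slc25a5, the muscle and the general form of the ADP/ATP carrier, gave an exact p of 0.146 (adjusted 0.488).

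Skeletal muscle genes were present in the detrusor arrays, unequally. Myh3 (embryonic myosin) had log2 levels of 13.34, 8.19 and 7.74 in detrusor 1, 2 and 3, Mylpf (fast myosin light chain) 11.85, 7.44 and 7.08, and Myog (myogenin) 11.49, 5.56 and 6.45. Ckmt2, the creatine kinase of muscle mitochondria, had 8.62, 6.07 and 5.63. All 4 were thus high in detrusor 1 alone, but they were picked after their values were seen. Cox6a2 and Cox7a1 also had their highest level in detrusor 1 (9.38 and 8.44), but stroma 2 was close behind (8.96 and 8.25). Ckm and Myh8, by contrast, were high on all 3 detrusor arrays, with log2 levels of 14.05, 13.55 and 13.90 for Ckm and 13.79, 11.75 and 12.49 for Myh8, against at most 10.64 and 10.32 elsewhere. Of 11 tested skeletal muscle markers, 6 had every detrusor array above every stroma array: these and Acta1, Tnnt1, Tnnt3 and Tnnc2. Tnni2 and Myod1 had differences below 0 between detrusor and stroma (-0.34 and -1.34). Ucp1, a marker of brown fat, which is rich in mitochondria, lay between 5.58 and 7.59 on all 9 arrays. Other fat markers were uneven: Cidea reached 9.95 in stroma 2 and 8.97 in detrusor 3, and Adipoq 9.33 in stroma 2. The summed intensity of 4 brown fat markers was 1739 in stroma 2 and 127 to 698 on the other arrays. The median over respiratory genes in detrusor 1 (0.32) was the lowest of the 3 detrusor arrays, and without detrusor 1 the median difference from stroma was 0.55. Leaving out detrusor 1 does not take out skeletal muscle transcripts such as Ckm and Myh8, and their part in the difference was not tested.

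No respiratory chain gene passed between urothelium and stroma, nor without stroma 3 and urothelium 3. With limma 0 of 86 were called, against 0.23% of all genes tested (0.0612% higher and 0.168% lower), and 8 had an unadjusted p under 0.05. The median difference was -0.12, equal to that of all genes, with 28 above 0 and 58 below. Centring each array on its median moved the median of all genes to 0.25 and that of the respiratory genes to 0.24, with 71 above 0, so no direction is given for this comparison. On day 1 alone, with 1 array each, the median was -0.41, and on day 2 alone -0.01. Atp5l (log2 0.87 ± 0.32, limma adjusted p = 0.177) and Uqcr10 (0.98 ± 0.37, adjusted p = 0.188) came nearest to the threshold, followed by Cox7c (1.21 ± 0.50, adjusted p = 0.223) and Ndufs7 (-0.68 ± 0.28, adjusted p = 0.227). The 3 urothelium arrays lay above the 3 stroma arrays for 5 genes (5.81%, against 9.77% of all genes) and below them for 8 (9.3%, against 13.3%).

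Between postnatal day 2 and day 1, with layer as a covariate, limma called 0 of 86 genes, against 0.0153% of all genes tested (0.00765% higher and 0.00765% lower), and 2 had an unadjusted p under 0.05. The median difference was -0.07 (all genes 0.03). Sdhd had the largest difference among genes of complex II (0.85 ± 0.32, adjusted p = 0.873). A test of layer by day cannot decide whether layer differences change with the day. Detrusor had 1 array on day 2, and stroma and urothelium had 1 each on day 1.

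The number of called genes was set beside the brightness of their probe sets. Between urothelium and detrusor, 6 of 19 genes with a mean log2 level of 11 to 13 were called lower (31.6%, against 10.1% of all genes of that band), and 14 of 32 at 13 to 15 (43.8%, against 9.02%). At 15 and over it was 2 of 22 (9.09%, against 3.32%), with a median difference of -0.46. Under 11, 1 of 13 was called lower (7.69%, against 7.0%) and 1 higher (7.69%, against 7.94%). For detrusor against stroma, 5 of 19 genes at 11 to 13 were called higher (26.3%, against 4.37% of all genes of that band), 7 of 32 at 13 to 15 (21.9%, against 4.19%), 0 of 22 at 15 and over (against 0.332%) and 0 of 13 under 11 (against 2.38%). Medians in the 3 brighter bands were 0.92, 0.68 and 0.28, where those of all genes were -0.01, 0.02 and -0.24. Most common subunits of cytochrome c oxidase and several of ATP synthase lie in the brightest band, so that complex and brightness cannot be told apart here.

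Other genes of energy metabolism were taken from lists chosen by function, and whether the lists differ from the respiratory chain was not tested. Their counts stand against 3.12% of all genes called higher in detrusor than in stroma and 8.05% called lower in urothelium than in detrusor. Of 17 genes of the citric acid cycle and pyruvate dehydrogenase, 3 rose in detrusor over stroma (17.6%, median 0.76) and 15 had a difference above 0. They were Suclg1, a subunit of succinyl-CoA ligase (log2 1.30 ± 0.23, limma adjusted p = 0.013), Dlat of pyruvate dehydrogenase (1.33 ± 0.26, adjusted p = 0.0199) and Dlst of oxoglutarate dehydrogenase (1.33 ± 0.32, adjusted p = 0.0364). Suclg1 and Dlat fell in urothelium against detrusor, by 1.19 ± 0.23 and 0.89 ± 0.26 (limma adjusted p = 0.00567 and 0.0434). Pcx, pyruvate carboxylase, rose there (2.10 ± 0.53, adjusted p = 0.0207). Of 15 genes of fatty acid oxidation, Cpt2, which reloads acyl groups onto coenzyme A in the matrix, rose in detrusor over stroma (1.21 ± 0.28, limma adjusted p = 0.0323) and fell in urothelium (-1.47 ± 0.28, adjusted p = 0.00556). It was the single one called in either comparison, and the list's medians were 0.62 and -0.15.

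Of 28 assembly factors and electron carriers, limma called 0 between detrusor and stroma (3 had an unadjusted p under 0.05) and 2 lower in urothelium than in detrusor (7.14%, against 8.05%). These were Cycs, cytochrome c itself (-0.80 ± 0.23, limma adjusted p = 0.0397), and Uqcc2, an assembly factor of complex III (-1.19 ± 0.30, adjusted p = 0.0216). The list's medians were 0.14 and -0.12. Of 76 mitochondrial ribosome genes, 2 rose in detrusor over stroma (2.63%, against 3.12% of all genes, median 0.24) and 2 fell in urothelium (2.63%, against 8.05%, median -0.28). Of 17 glycolysis genes, 4 rose in detrusor over stroma (23.5%, median 0.43) and 4 fell in urothelium (23.5%, median -0.12). They included the insulin-regulated glucose carrier Slc2a4 (3.53 ± 0.80 and -4.32 ± 0.80, limma adjusted p = 0.0296 and 0.00475), the muscle enolase Eno3 (2.85 ± 0.58 and -3.33 ± 0.58, adjusted p = 0.0215 and 0.00373) and Pfkp, a phosphofructokinase (2.90 ± 0.55 and -3.18 ± 0.55, adjusted p = 0.0168 and 0.00359). Urothelium against stroma gave 0 calls with limma in each of these lists.

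**Figure D5:**
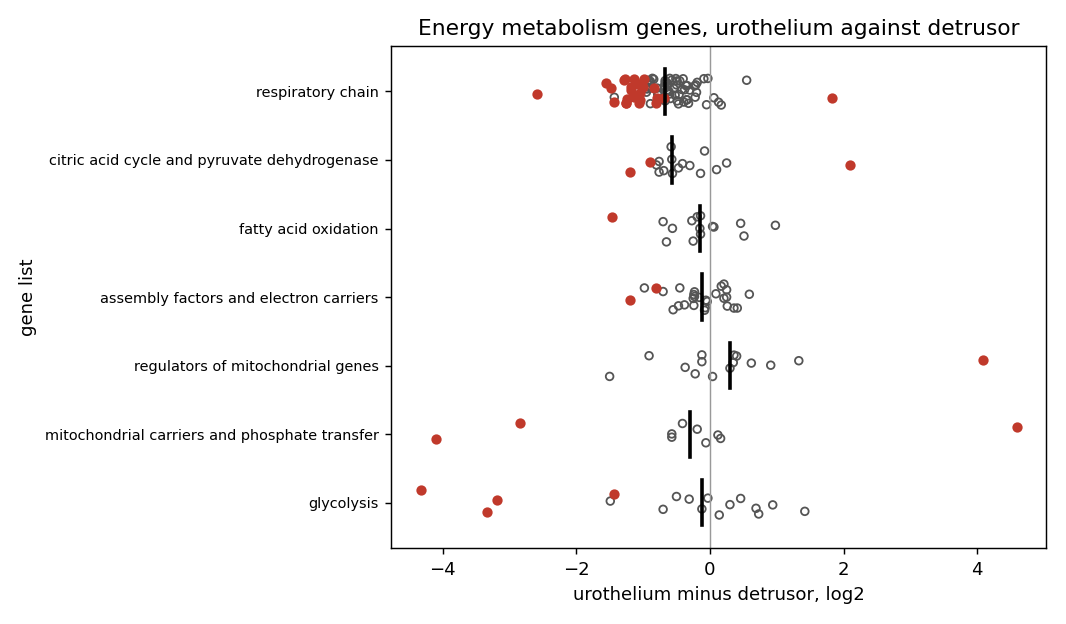
Urothelium minus detrusor on the log2 scale (horizontal axis) for each tested gene (points) of the respiratory chain and of 6 other lists of energy metabolism (rows); filled points have a limma adjusted p under 0.05 and black bars are medians. The respiratory chain has the lowest median, -0.67, followed by the citric acid cycle and pyruvate dehydrogenase at -0.56, and the regulators are at 0.30.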

How the data were processed

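The authors deposited linear probe set intensities made after 2 rounds of RNA amplification, per the labels, with the Affymetrix program GCOS, which the submitters' processing notes name without a version. The signal algorithm and its settings are not stated. Each array had a mean of 1500 after trimming 2% at both ends, so the deposited values were already scaled and no other normalization was added. Scaled intensities are relative to the array's total signal, and the number of arrays limits the precision.

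Of 45101 probe sets, 34945 had 1 gene symbol, 932 had several and 9160 were not named, and 64 were controls. Symbols were checked by gene identifier against a gene table of GRCm38.p6 (34741 matched, 0 changed). A probe set was kept if 3 or more of the 9 arrays had it at their median or higher, and a gene with several was read from the brightest on average. Of 49 respiratory genes with several kept probe sets, 12 had another that differed in sign between detrusor and stroma (Uqcr10 among the called), 17 between urothelium and stroma, and 11 between urothelium and detrusor (Atp5j2 and Uqcrq among the called).

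All comparisons of layers came from 1 limma fit over the 9 arrays (limma 3.58.1, R 4.3.3, lmFit and eBayes with trend), with Benjamini-Hochberg adjustment over all 13064 genes and a threshold of 0.05. The fit was tested on simulated data. The genes and lists were chosen with earlier results of these data known. The rule named every isoform of a pair, per comparison and complex up to 6 called genes in each direction (or the 2 nearest to the threshold), and 3 genes per related list. Other genes named were chosen after their values were seen, to account for the set. Sites were searched on both strands, and those of MEF2 and serum response factor are the usual consensus sequences. Alternatives were quantile normalization, median centring, 2 other pseudocounts (8.13 and 232.88), 2 other filters (none, or 6 of 9 arrays), the mean of probe sets, postnatal day as a covariate, array weights, each array left out and stroma 3 with urothelium 3 left out.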

Additional observations from a re-analysis of the deposited data

How the results depend on the processing

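Between detrusor and stroma, the number of respiratory genes called (12) ranged from 0 to 11 when 1 array was left out, and it was 4 without stroma 3 and urothelium 3. With the other settings it was 9 to 18, and 0 genes were called lower under any of them. The median difference stayed between 0.40 and 0.85. Between urothelium and detrusor, the number (24) ranged from 6 to 27 when 1 array was left out. It was 13 without stroma 3 and urothelium 3, 7 with median centring and 46 with array weights. With the remaining settings it was 18 to 30, and the median difference stayed between -0.74 and -0.60. Of the 17 genes named by rule there, 4 were called in all 19 alternatives. Of the 12 called between detrusor and stroma, 0 were. Between urothelium and stroma and between the days, 0 were called under each alternative run. Of the isoform pairs 0 passed under each alternative run, the lowest adjusted p being 0.0893 with the mean of probe sets. The pair test was not run with the day covariate or array weights, which need a linear fit, and pairs with an untested gene were left out under quantile normalization and the filter on 6 of 9 arrays. The causes of these changes were not tested, beyond the fewer arrays of the fits that leave 1 out. No paired analysis was possible because no number in the labels is shared between arrays of different layers. Median centring moved the median of all genes from -0.16 to 0.18 between detrusor and stroma. Low levels cannot be read as absence, since the table has no background values.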

Other observations

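Regulators of mitochondrial genes and mitochondrial kinases included genes that ran against the respiratory chain. Ppargc1a, a coactivator of mitochondrial genes, had log2 levels of 7.65, 7.51 and 6.39 in detrusor, 8.34, 9.23 and 12.16 in stroma and 12.64, 10.44 and 10.75 in urothelium. It was higher in urothelium than in detrusor by 4.09 ± 0.91 (limma adjusted p = 0.0116), with no overlap of the arrays. Ppargc1a was the single one of 15 tested regulators called in any layer comparison. That is 6.67% of them between urothelium and detrusor, below the 16.4% of all genes. Its highest stroma array was stroma 3, which also had the highest sum of urothelial markers in its layer but lay above urothelium 2 and 3 for Ppargc1a. A link between these was not tested. Tfam, which packages and transcribes mitochondrial DNA, differed by 0.91 ± 0.34 between urothelium and detrusor (adjusted p = 0.0961), and Esrra by -0.22 ± 0.46 (adjusted p = 0.812).

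The creatine kinases were split by layer. Ckmt1, the widespread mitochondrial form, had log2 levels of 5.58, 6.47 and 7.04 in detrusor, 8.03, 7.0 and 9.93 in stroma and 10.77, 12.36 and 9.75 in urothelium, and was higher in urothelium than in detrusor by 4.59 ± 0.83 (limma adjusted p = 0.00444). Ckb, the cytosolic brain form, had levels of 15.44, 16.16 and 15.65 in detrusor, 12.65, 11.53 and 12.66 in stroma and 11.18, 9.55 and 14.22 in urothelium, and was lower in urothelium than in detrusor by -4.10 ± 0.90 (adjusted p = 0.0107). Ak1, an adenylate kinase, was lower there by -2.84 ± 0.37 (adjusted p = 0.0012). Urothelium 3, the array of its layer with the most smooth muscle transcripts, had the highest Ckb and the lowest Ckmt1 level there. A link between these was not tested.

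The tested genes whose levels followed Cox6a2 most closely over the 9 arrays were Anapc15 (Pearson's r = 0.97), Zc3h4 (0.90) and 9430038I01Rik (0.86), and those for Cox7a1 were Rassf4 (0.92), Brd7 (0.91) and Cdc42bpb (0.90). These are the highest of many correlations over 9 arrays of 3 layers and describe these arrays only. None of these genes belongs to the respiratory chain.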
